A study of Mus musculus with 6 samples.

Results

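A set of 10 genes of the CD3 complex and of the first steps of T-cell receptor signalling was followed in C1498 leukemia cells that had been taken from cytarabine-treated or control mice. They were Cd3d, Cd3e, Cd3g and Cd247, which encode the signalling chains of the receptor, Lck, Fyn and Zap70, which encode its tyrosine kinases, and Lat, Lcp2 and Trat1, which encode adaptor proteins. The genes were chosen by symbol, and all 10 were among the 23284 genes in the files. The list was drawn up when differences between the groups in these libraries, among them those of Trat1 and Cd3d, were already known. The differences between groups in the 10 genes are therefore given as a description without a test.

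C1498 is a mouse acute myeloid leukemia line, and the cells were descendants of a single clone that carried green fluorescent protein from a retrovirus. They were injected into the veins of wild-type C57BL/6J mice (female and 8 to 10 weeks old, as the methods give for mice in general), and marrow of femur, tibia and pelvis was collected on day 21. GFP+ CD49b+ cells were sorted and 1 RNA library was made per mouse, from 3 mice given cytarabine, a nucleoside drug that blocks DNA synthesis, and 3 control mice, which the records call both PBS-treated and untreated. For the imaging mice the methods give 20 μg of cytarabine on days 19 and 20, and the schedule of the RNA mice is not given separately.

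In T cells the antigen receptor has no signalling tail of its own, and its signal passes through the CD3γ, δ, ε and ζ chains. Lck, helped by Fyn, phosphorylates tyrosines in these chains, ZAP-70 docks there, and ZAP-70 in turn phosphorylates the adaptors LAT and SLP-76 (the product of Lcp2), on which the calcium, Ras and NF-κB branches are assembled. TRAT1, also named TRIM, is a small transmembrane adaptor found with the receptor complex. Most cells of the myeloid lineage do not make these chains.

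The values are FPKM, read counts scaled by transcript length and by the size of the library, so levels can be compared between genes per unit of length. Total reads were inferred from the steps between low FPKM values as between 11440000 and 18800000 per library, which puts 3 reads on a transcript of 2000 bases at between 0.0886 and 0.146 FPKM. Cytarabine 2, cytarabine 3 and control 1 stood apart from the other 3 libraries through transcripts of colon epithelium. The mean log2(FPKM + 1) of 17 colon genes was from 5.73 to 6.90 in these 3 libraries and from 0.974 to 3.55 in cytarabine 1, control 2 and control 3. Differences are therefore also given within each of these sides, which hold 2 cytarabine libraries against 1 control library and 1 against 2. Other transcripts set other libraries apart. The heart gene Nppa was at 1480 FPKM in control 1, 393 in cytarabine 3 and 318 in control 2, and at most 30.6 FPKM in the other 3, and all 9 heart genes tested had a log2 fold change below 0, with overlap between groups. Mpo, Elane, Prtn3 and Ctsg, listed as genes of myeloid progenitors, were high in cytarabine 1 (Mpo at 71.0 FPKM, against 2.33 to 12.3 FPKM in the others). Other genes of that list were not. Cd34 was lowest in cytarabine 1 (0.410 FPKM), Kit and Cebpa were below their values in cytarabine 2 and cytarabine 3, and Csf3r was below every control library. The part of these transcripts in the results was not tested. Among 9 neutrophil genes listed as markers, 8 were in the files, and their summed FPKM was from 189 to 1433 with cytarabine and from 1438 to 2043 in controls, with 7 of the 8 lower at an unadjusted p under 0.05 in limma (9.81% of all genes tested were).

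The γ, δ and ε chains are encoded side by side on mouse chromosome 9 (GRCm38). Cd3g spans 44969572 to 44980431 on the minus strand and Cd3d spans 44981786 to 44987339 on the plus strand, so that the pair starts back to back with 1355 bases between the start sites. Cd3e follows at 44998740 to 45009627 on the minus strand. The ζ chain gene Cd247 lies apart, on chromosome 1 from 165788681 to 165877277. The 250 bases before the RefSeq start of these 4 genes (GRCm38.p6) are shown because their mRNA levels differed so widely, and those of Trat1, on chromosome 16 from 48730774 to 48772021, because its level differed most between the groups. All 10 genes matched the RefSeq table. Each sequence is written 5′ to 3′ toward its start, and capitals mark matches on either strand to CAGCTG (an E-box), GGAAGT (ETS), TGTGGT (RUNX), CTTTGA (TCF/LEF), AGATAA (for GATA factors), the TATA box motif TATAAA or the CArG box of SRF.
Cd3g, chr9:44980432-44980681, minus strand: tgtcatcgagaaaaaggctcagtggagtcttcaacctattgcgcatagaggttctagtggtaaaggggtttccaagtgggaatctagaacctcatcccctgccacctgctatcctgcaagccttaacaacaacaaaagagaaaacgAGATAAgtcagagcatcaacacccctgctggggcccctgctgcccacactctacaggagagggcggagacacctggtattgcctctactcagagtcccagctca
Cd3e, chr9:45009612-45009861, minus strand: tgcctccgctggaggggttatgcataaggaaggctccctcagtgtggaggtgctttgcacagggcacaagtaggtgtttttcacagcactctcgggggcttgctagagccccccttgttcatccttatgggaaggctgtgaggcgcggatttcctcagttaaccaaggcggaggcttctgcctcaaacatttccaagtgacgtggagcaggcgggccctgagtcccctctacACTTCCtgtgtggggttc
Cd3d, chr9:44981536-44981785, plus strand: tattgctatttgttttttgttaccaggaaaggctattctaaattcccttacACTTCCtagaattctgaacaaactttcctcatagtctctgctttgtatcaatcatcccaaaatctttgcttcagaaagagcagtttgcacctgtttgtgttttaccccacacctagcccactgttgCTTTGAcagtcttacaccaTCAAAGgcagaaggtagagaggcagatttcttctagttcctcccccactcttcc
Cd247, chr1:165788431-165788680, plus strand: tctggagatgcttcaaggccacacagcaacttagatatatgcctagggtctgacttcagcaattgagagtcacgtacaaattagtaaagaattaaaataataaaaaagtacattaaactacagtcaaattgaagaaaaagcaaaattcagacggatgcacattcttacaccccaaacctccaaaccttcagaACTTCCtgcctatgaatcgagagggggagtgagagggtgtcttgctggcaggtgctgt
Trat1, chr16:48772063-48772312, minus strand: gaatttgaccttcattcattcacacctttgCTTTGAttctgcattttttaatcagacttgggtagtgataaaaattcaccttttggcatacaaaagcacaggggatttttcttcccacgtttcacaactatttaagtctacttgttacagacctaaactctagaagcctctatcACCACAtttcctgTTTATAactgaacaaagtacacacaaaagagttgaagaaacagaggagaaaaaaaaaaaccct
The Cd3d window held 1 GGAAGT and 2 CTTTGA matches, while the Cd3g window held 1 AGATAA match and the Cd3e and Cd247 windows 1 GGAAGT match each. The Trat1 window held the TCF/LEF, RUNX and TATA box motifs once each. Among 32817 windows of the same length in the RefSeq table, GGAAGT was in 19.7%, CTTTGA in 13.8%, TGTGGT in 14%, CAGCTG in 13%, TATAAA in 12.4%, AGATAA in 9.99% and the CArG box in 1.47%. A CArG box was in none of the 13 windows of the 10 genes. A match is a run of letters only, and binding was not measured.

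The sorted cells held abundant mRNA for most of this machinery, but the 4 CD3 chains were at very different levels. Cd3g was the highest, with 604, 508 and 449 FPKM in libraries 1, 2 and 3 of the cytarabine group against 556, 629 and 652 FPKM in those of the control group. Its mean of 566.5 FPKM ranked 161 among all 23284 genes. Cd3e, the chain that pairs with both CD3γ and CD3δ, was at 177, 131 and 129.6 FPKM in treated mice against 146, 189 and 199 FPKM in control mice. Cd3d was at 7.66, 9.99 and 7.70 FPKM in treated mice against 3.61, 4.44 and 4.47 FPKM in control mice. Cd247 stayed below 1 FPKM in every library, with 0.412, 0.765 and 0.504 FPKM in treated mice against 0.284, 0.582 and 0.585 FPKM in control mice. These Cd247 values lie above the level of 3 reads on its longest transcript, 0.0579 to 0.0951 FPKM. Cd247 overlaps Pou2f1 on the opposite strand, and since the strand setting of the FPKM calculation was not given, reads of the pair cannot be told apart. The same holds for Cd3e and Gm48719, Lcp2 and 4930469K13Rik, Zap70 and Gm18828, and Fyn and the genes Gm6963, Gm16364 and Gm16365, all annotated on the opposite strand. On the same strand, Trat1 overlaps the processed pseudogene Gm8670, Cd247 overlaps Gm16565 and Cd3e overlaps Gm48720. Lck and Lat overlap the microRNA genes Mir8119 and Mir7058 there. Strand cannot separate the reads of these pairs.

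In every library Cd3g exceeded its back-to-back neighbour Cd3d by at least 50.9-fold and Cd247 by at least 664-fold. The ratio of Cd3g to Cd3e was narrow, from 3.27 to 3.87 over the 6 libraries. Fcer1g, which encodes the FcRγ chain that can take the place of ζ in some receptors, was at 147 to 280 FPKM (mean 204 FPKM), from 237 to 642 times the level of Cd247. Of 7 genes listed for the constant regions of the antigen receptor chains themselves, 0 were in the files under the symbols searched, so these chains could not be checked.

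The 3 kinases and the adaptor genes Lat and Lcp2 had similar levels below that of Cd3e, while the adaptor gene Trat1 was far lower. Lck, on chromosome 4 from 129548344 to 129573641, had 105, 75.5 and 82.0 FPKM in treated mice against 84.1, 84.2 and 102 FPKM in control mice. Zap70, on chromosome 1 from 36761798 to 36782818, had 81.5, 73.4 and 66.4 FPKM in treated mice against 68.9, 70.6 and 83.5 FPKM in control mice. Fyn, on chromosome 10 from 39368855 to 39565381, had 61.9, 50.2 and 48.8 FPKM in treated mice against 59.2, 64.8 and 66.9 FPKM in control mice. For each of these kinases the groups overlapped. Lat, the membrane adaptor on chromosome 7 from 126363824 to 126369570, had 96.2, 78.4 and 76.1 FPKM in treated mice against 71.9, 99.5 and 96.6 FPKM in control mice, also with overlap. Syk, the relative of Zap70 that B cells and myeloid cells use, was low in both groups at 1.40 to 2.12 FPKM, and Zap70 exceeded it by 32.5-fold to 58.3-fold. Among other kinases of the Src family, Lyn was at 1.60 to 3.82 FPKM and Blk at 0.213 to 0.859 FPKM.

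The order of mean levels was Cd3g, Cd3e, Lck, Lat, Zap70, Lcp2, Fyn, Trat1, Cd3d and Cd247. Each gene was compared with the next one in this order within each library, by an exact sign-flip permutation test of log2(FPKM + 1) (two-sided, 6 libraries, 9 pairs). Of the 9 pairs, 6 kept 1 order in all 6 libraries, each with exact p = 0.0312, the smallest this test can give, and an adjusted p of 0.0469. The order came from the same 6 libraries, so these p-values restate that the order was kept and are not independent support for it. The pairs without a consistent order were Lck and Lat (log2 difference 0.04 ± 0.16, SD over 6 libraries, exact permutation adjusted p = 0.594), Zap70 and Lcp2 (0.06 ± 0.27, SD, exact permutation adjusted p = 0.594) and Trat1 and Cd3d (-0.36 ± 1.03, SD, exact permutation adjusted p = 0.482). For Trat1 the mean FPKM was above that of Cd3d, but it exceeded Cd3d in only 2 of the 6 libraries, cytarabine 2 and cytarabine 3. Trat1 was below Cd3d in every control library and in cytarabine 1, so the order of this pair varied within the cytarabine group. The test pooled the groups.

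**Figure D1:**
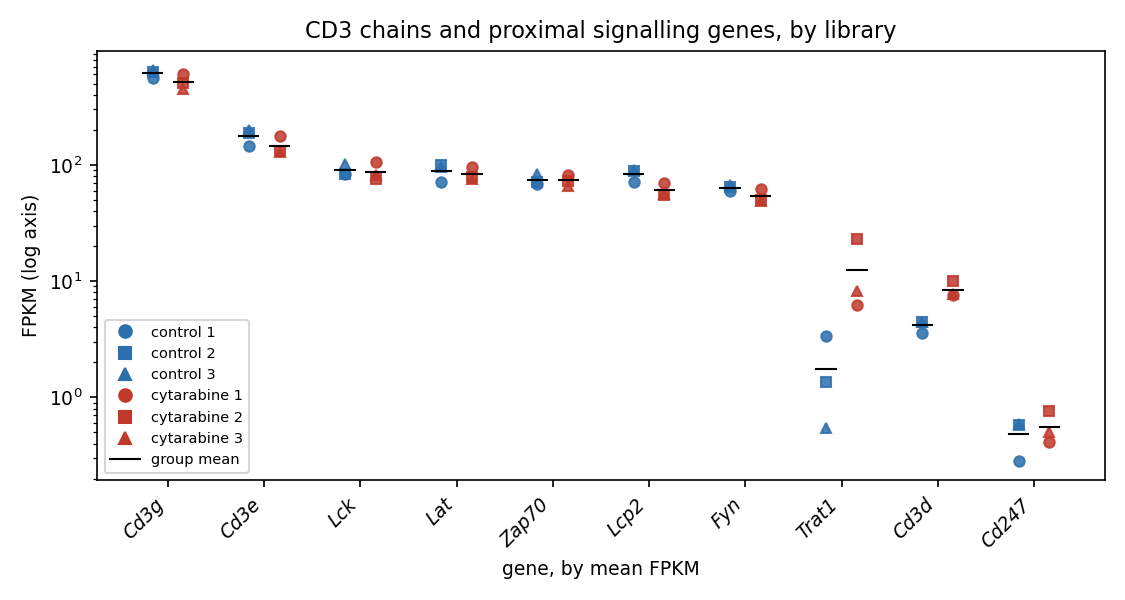
FPKM of the 10 genes on a log axis, ordered by mean, with 1 symbol per library, blue for control, red for cytarabine and a bar for each group mean. Levels run from Cd3g (449 to 652 FPKM) down to Cd247 (0.284 to 0.765 FPKM), and the red and blue symbols separate in Lcp2, Trat1 and Cd3d.

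Between the groups, Trat1 and Cd3d were higher in all 3 cytarabine libraries than in any control library, Lcp2 was lower in all 3, and the other 7 genes overlapped. Trat1 was 6.23, 22.9 and 8.30 FPKM in the treated mice 1, 2 and 3, against 3.38, 1.35 and 0.545 FPKM in the control mice 1, 2 and 3. The means were 12.5 ± 9.08 FPKM (SD, n = 3 mice) and 1.76 ± 1.46 FPKM (SD, n = 3), a ratio of 7.09. Its log2 fold change was 2.22 with a standard error of 0.57, on the scale of log2(FPKM + 1), which understates the change of low genes. Cytarabine 2 was the highest and control 3 the lowest of the 6, so both groups were spread widely. Without cytarabine 2 the log2 fold change was 1.71.

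Cd3d averaged 8.45 ± 1.33 FPKM (SD, n = 3) with cytarabine and 4.18 ± 0.49 FPKM (SD, n = 3) in controls, a ratio of 2.02. Its log2 fold change was 0.86 (standard error 0.14), and it ranged from 0.75 to 0.92 when 1 library at a time was left out. The 3 values of each group lay close together, unlike those of Trat1. Its neighbours on the chromosome did not share this direction, with log2 fold changes of -0.24 (standard error 0.12) for Cd3g and -0.28 (standard error 0.17) for Cd3e, which became -0.04 and 0.04 with the colon score as a covariate. The ratio of Cd3g to Cd3d, which does not depend on how the libraries were scaled, was 78.9, 50.9 and 58.3 with cytarabine and 154, 142 and 146 in controls. The ratio of Cd3g to Trat1 was 97.0, 22.2 and 54.2 against 165, 466 and 1196.

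**Figure D2:**
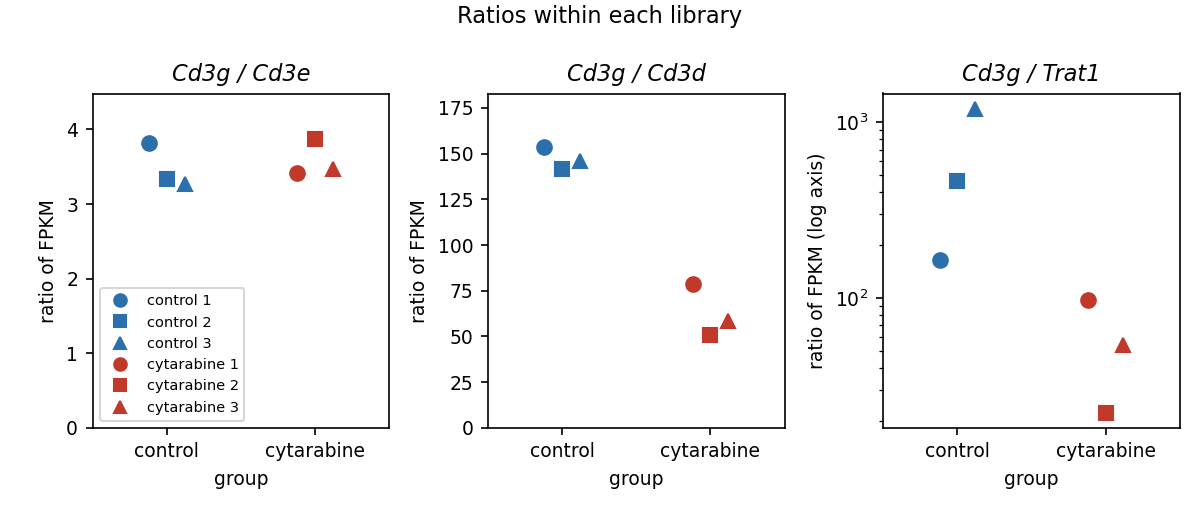
Ratios of FPKM within each library, Cd3g to Cd3e and Cd3g to Cd3d on linear axes and Cd3g to Trat1 on a log axis, with 1 symbol per library. The groups overlap for Cd3e, whereas the ratio to Cd3d is from 50.9 to 78.9 with cytarabine and from 142 to 154 in controls.

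Lcp2, on chromosome 11 from 34046920 to 34092295, encodes SLP-76, the cytosolic partner of LAT. It was at 70.5, 54.8 and 55.8 FPKM in treated mice against 71.9, 88.7 and 90.9 FPKM in control mice. The highest cytarabine library and the lowest control library were close, at 70.5 and 71.9 FPKM. The means were 60.4 ± 8.80 FPKM (SD, n = 3) and 83.8 ± 10.4 FPKM (SD, n = 3), a log2 fold change of -0.47 (standard error 0.14). For the 6 remaining genes with a fitted value the log2 fold change ran from -0.28 for Cd3e to -0.01 for Zap70. Cd247 was below the minimum mean of 1 FPKM and had no fitted value.

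Of the 9 genes fitted, 3 had groups that did not overlap, where 23.8% of all 11703 genes tested did. Because the 10 genes were listed with this contrast known, nothing is read from their count. No gene of the 11703 had an adjusted p under 0.05 in limma, and 2038 of them (17.4%) had an unadjusted p under 0.05. The median log2 fold change was -0.09 over the 9 genes and -0.0020 over all genes tested.

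The groups of Trat1, Cd3d and Lcp2 did not overlap, so the direction on both sides of the colon division was fixed in advance. Only the sizes of the differences can be compared. On each side the cytarabine libraries had the higher colon scores (3.55 against 1.19 and 0.974, and 6.76 and 6.90 against 5.73). The difference in log2(FPKM + 1) was 1.92 for Trat1, 0.67 for Cd3d and -0.34 for Lcp2 on the side with the lower scores, and 1.77, 1.08 and -0.37 on the other. Without cytarabine 1, the library with most Mpo, Elane, Prtn3 and Ctsg RNA, the log2 fold changes were 2.57, 0.92 and -0.58, and without control 1, the library with most heart RNA, they were 2.62, 0.78 and -0.57. With the colon score as a covariate the log2 fold change of Trat1 was 1.36 (standard error 0.49), that of Lcp2 was -0.22 and that of Lat was 0.21 in place of -0.09. In sorted bulk RNA, a change in the number of cells that make a transcript and a change in the amount per cell cannot be told apart. Of 15 T cell marker genes listed, 12 were in the files, and their summed FPKM was from 384 to 442 with cytarabine and from 307 to 427 in controls, of which Tcf7 made up 263 to 377 FPKM. Lef1 was at 15.0 to 21.7 FPKM, Cd28 at 12.4 to 37.9, Il7r at 5.43 to 10.9, Bcl11b at 3.44 to 6.81 and Thy1 at 0.996 to 5.74 FPKM. Il7r, like Cd28, was higher in every cytarabine library and Bcl11b lower. The markers Cd4, Cd8a, Cd8b1, Cd5 and Ccr7 were under 1 FPKM in every library, with Cd5 at most 0.0848 FPKM, and Cd6 was at most 0.0971 FPKM except for 2.08 FPKM in control 3. CD49b, used for the sort, is also found on NK cells. Of 9 NK cell markers, 6 were tested and all 6 were higher in every cytarabine library (10.9% of all genes were), for example Klrd1 at 115 to 139 FPKM against 86.6 to 94.5 FPKM. Gzmb (means of 1.90 FPKM with cytarabine and 0.341 in controls) and Prf1 (2.08 and 0.719 FPKM) passed the filter only through the cytarabine group. The count of 6 is therefore not comparable with that share. Klrb1c, Klrk1, Klrd1 and Gzma averaged above 1 FPKM in both groups. Ncr1, Eomes and Tbx21 were under 1 FPKM in every library. The part of NK cells in the values of Trat1 and Cd3d, and that of neutrophils in the values of Lcp2, was not tested.

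The genes around this core were examined as lists of other receptor pathway genes, also written with earlier results of these data known. Of the 59 genes listed, 52 were in the files and 44 had a mean of at least 1 FPKM. None had an adjusted p under 0.05 in limma, 7 were higher at an unadjusted p under 0.05 (7.6% of all genes were) and 6 were lower (9.81% of all genes were). The groups did not overlap for 8 that were higher (10.9% of all genes) and 4 that were lower (12.9% of all genes). The median log2 fold change of the 44 was 0.03, with 26 above 0 and 18 below.

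Cd28 differed most among them. It encodes the costimulatory receptor whose signal joins that of the antigen receptor in T cells. It was at 36.4, 30.9 and 37.9 FPKM in treated mice against 14.7, 12.4 and 14.0 FPKM in control mice. The gap between the lowest cytarabine library and the highest control library was wider than the range within either group. This is a log2 fold change of 1.29 (SE 0.11), with an adjusted p of 0.128 in limma that ranged from 0.0517 to 0.567 over the alternatives. The log2 fold change ranged from 1.23 to 1.38 over the same alternatives, and the difference within the sides of the colon division was 1.40 and 1.17. Of the other 7 receptors of this list, Ptprc, the CD45 phosphatase that activates Lck, was the highest at 284 to 386 FPKM and overlapped between groups. Cd2 also overlapped, and Cd4, Cd8a, Cd8b1, Cd5 and Cd6 were below the minimum.

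Among 5 kinases of the Tec, Syk and Csk families, Tec was higher with cytarabine, at 15.9, 12.5 and 12.7 FPKM against 8.57, 9.999 and 8.38 FPKM (log2 fold change 0.55, standard error 0.12, adjusted p = 0.153 from limma). Its T cell relative Txk overlapped between groups, with a log2 fold change of 0.25. Csk, which holds Src family kinases inactive, was at 202, 161 and 159 FPKM in treated mice against 199.7, 244 and 245 FPKM in control mice (log2 fold change -0.40, standard error 0.13, adjusted p = 0.224 from limma), and cytarabine 1 lay above control 1. Pag1, the membrane adaptor that recruits Csk, also overlapped between groups (log2 fold change -0.46, standard error 0.16, adjusted p = 0.233 from limma).

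Of 20 adaptor genes, 18 were tested. Themis, which encodes a regulator of receptor signalling in thymocytes, was at 10.2, 11.1 and 11.1 FPKM in treated mice against 6.82, 8.37 and 8.11 FPKM in control mice (log2 fold change 0.43, standard error 0.10, adjusted p = 0.159 from limma). Lime1, a transmembrane adaptor bound by Lck, was at 21.3, 16.1 and 19.4 FPKM against 12.6, 12.2 and 14.2 FPKM (log2 fold change 0.50, standard error 0.12, adjusted p = 0.166 from limma). Nck2, which links receptors to the actin cytoskeleton, was at 36.0, 33.8 and 33.4 FPKM against 27.7, 27.5 and 27.4 FPKM, a small difference between tight groups (log2 fold change 0.31, standard error 0.06, adjusted p = 0.137 from limma). Sla, which encodes the adaptor SLAP that promotes loss of receptor chains, was at 13.6, 14.2 and 22.1 FPKM against 10.6, 10.3 and 12.2 FPKM (log2 fold change 0.52, standard error 0.19, adjusted p = 0.255 from limma). Without control 1, control 2 or control 3 the log2 fold change of Sla was 0.50, 0.48 or 0.59, and its unadjusted p was then above 0.05. Was, which encodes the actin regulator WASP, had the highest mean of the list, 81.3 FPKM, and overlapped between groups at 70.2 to 92.9 FPKM. Grap2 and Vav1, whose products join SLP-76, overlapped between groups, with log2 fold changes of -0.04 and -0.24.

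**Figure D3:**
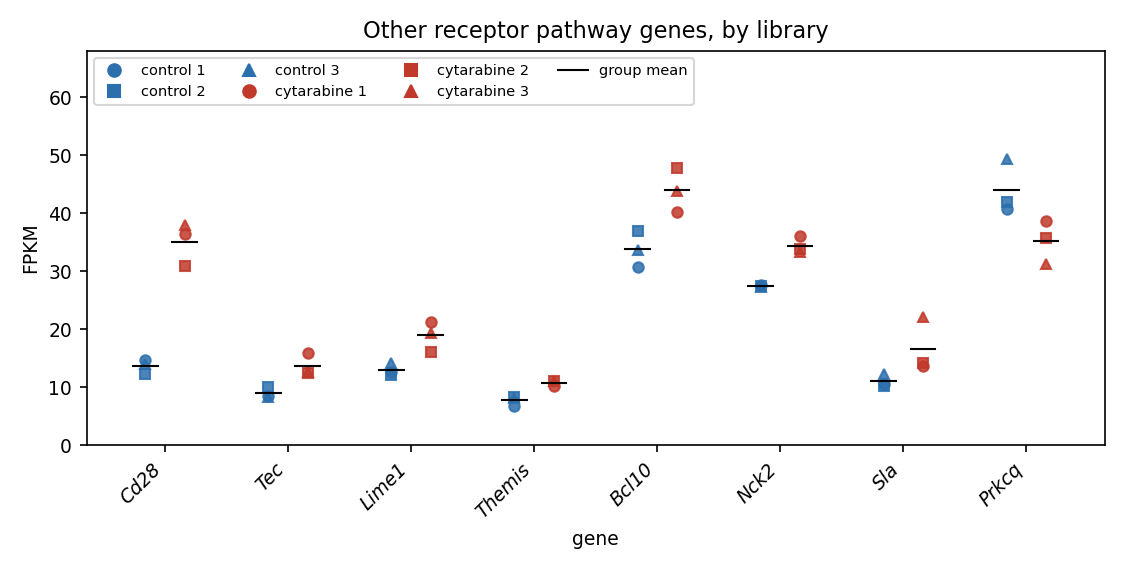
FPKM of 8 other receptor pathway genes on a linear axis, with 1 symbol per library and a bar for each group mean. Red (cytarabine) lies above blue (control) in all of them except Prkcq, and the gap is widest in Cd28 (30.9 to 37.9 FPKM against 12.4 to 14.7 FPKM).

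Downstream of the adaptors, 7 of 8 genes were tested. Bcl10, a scaffold of the NF-κB branch, was higher with cytarabine at 40.2, 47.8 and 43.8 FPKM against 30.7, 36.9 and 33.7 FPKM (log2 fold change 0.37, standard error 0.10, adjusted p = 0.183 from limma). Malt1, which encodes its partner protease, had a log2 fold change of 0.0040. Rasgrp1, which activates Ras below the receptor, was lower with cytarabine at 167, 134 and 138 FPKM against 168, 193 and 211 FPKM (log2 fold change -0.38, standard error 0.12, adjusted p = 0.222 from limma). Prkcq, which encodes protein kinase Cθ, was lower at 38.7, 35.8 and 31.3 FPKM against 40.8, 42.0 and 49.3 FPKM (log2 fold change -0.31, standard error 0.11, adjusted p = 0.243 from limma). Plcg1, the phospholipase bound by LAT, had a log2 fold change of 0.01. Among 11 inhibitors, Dgka, a kinase that removes the lipid sensed by RasGRP1, was lower at 168, 149 and 122 FPKM against 189, 170.5 and 182 FPKM (log2 fold change -0.31, standard error 0.12, adjusted p = 0.281 from limma), and Ubash3a was lower with overlap between groups (log2 fold change -0.56, standard error 0.22, adjusted p = 0.28 from limma).

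The count of 6 lower pathway genes varied more with the libraries used than the count of 7 higher ones. At an unadjusted p under 0.05 the lower count was 0 without cytarabine 2, without cytarabine 3 or without control 2, 1 without control 3, 4 without control 1 and 9 without cytarabine 1, while the higher count stayed between 6 and 8. Calls over all genes also fell without cytarabine 2, cytarabine 3, control 2 or control 3. The lower calls went from 1148 to between 585 and 666, and the higher calls from 890 to between 594 and 636. The lower count was also 0 with the colon score as a covariate, where the higher count was 13, and 0 with the replicate number as a block. In those fits without 1 library, Rasgrp1 had log2 fold changes from -0.48 to -0.30, while they lay from -0.38 to -0.23 for Prkcq and from -0.42 to -0.19 for Dgka. With the colon score as a covariate the log2 fold changes were -0.17 for Rasgrp1, -0.18 for Prkcq and -0.25 for Dgka.

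**Figure D4:**
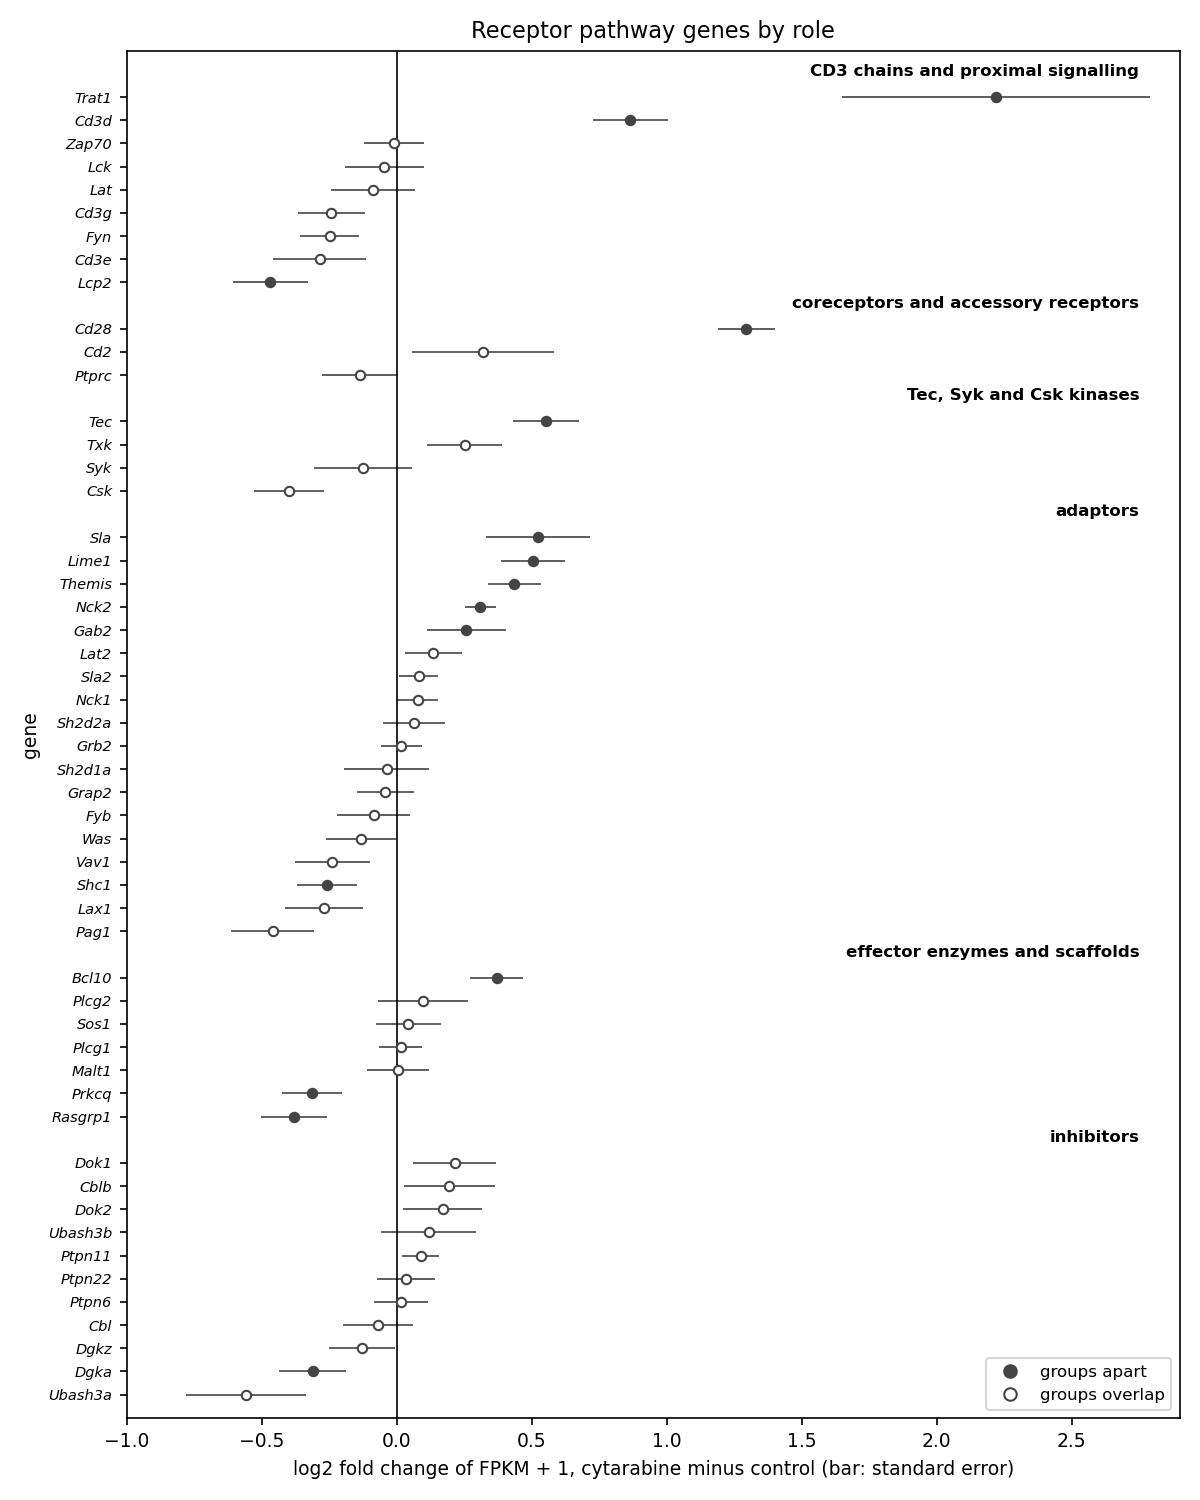
Log2 fold change of FPKM + 1, cytarabine minus control, with the standard error as a bar, for 9 of the 10 genes and other receptor pathway genes, grouped by role and ordered by value. Filled circles mark genes whose groups do not overlap, and Trat1 (2.22), Cd28 (1.29) and Cd3d (0.86) lie farthest to the right.

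The tested genes whose profiles over the 6 libraries were most like those of Cd3e, Cd3d and Trat1 were found by the root mean square difference of log2(FPKM + 1) after centring each gene. For Cd3e they were Mtap1s (0.02), Incenp (0.02) and Sipa1 (0.03), whose groups overlapped as those of Cd3e did. For Cd3d they were Acbd4 (0.06), Relb (0.07) and Nfkbia (0.09), all higher in every cytarabine library. Relb encodes an NF-κB subunit, and was at 14.1, 18.2 and 13.9 FPKM in treated mice against 6.42, 9.12 and 7.85 FPKM in control mice. For Trat1 they were Dapl1 (0.37), 0610040B10Rik (0.42) and Slc39a4 (0.56), a looser likeness. Dapl1 was at 9.17, 25.2 and 7.76 FPKM against 3.45, 0.441 and 0.237 FPKM. These names are a description over 6 libraries, with no test.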

How the data were processed

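RNA-Seq libraries of sorted C1498 cells came from 6 mice, 3 per group. The authors sequenced 75-base single-end reads from a stranded mRNA kit, mapped them to mm10 with TopHat2 2.0.13, Bowtie2 2.2.3 and SAMtools 0.1.19, and deposited 1 FPKM value per gene symbol from Cufflinks 2.2.1. Which annotation and settings Cufflinks ran with is not given in the sources used here. Groups and mouse numbers follow the source names of the samples; the titles number the mice differently.

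The deposited FPKM values were transformed to log2(FPKM + 1). Genes averaging 1 FPKM or more (11703 of 23284) entered a linear model in limma 3.58.1 (R 4.3.3), moderated by eBayes with a trend, and two-sided p-values were adjusted by the Benjamini-Hochberg method. The step was tested on simulated data with the same spread for every gene and planted changes larger than most of those described here. It therefore does not show how the fit performs in these libraries. Levels of neighbouring genes were compared with an exact sign-flip permutation test over the 6 libraries in Python 3.11.15, and figures were drawn with matplotlib 3.10.9. Positions come from GENCODE M21 (GRCm38). Read totals were inferred from 3168 genes with 1 transcript, assuming fragments of 200 bases, and floors cover counting error only. No pair of libraries shared an identical value in genes above 0 in both.

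The 10 genes and the lists were chosen with earlier results of these data known. Genes named from the lists were those with an unadjusted p under 0.05 and no overlap, up to 4 per list and direction, and the highest gene of each list. Other list genes, such as Pag1 and Ubash3a, were named after their values were seen. A few list genes are not reported here. Alternatives were another pseudocount (0.1), other filters, 3 scalings, eBayes without trend, the replicate block, the colon score as a covariate and leaving out each library.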

Additional observations from a re-analysis of the deposited data

How the results depend on the processing

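For the 9 fitted genes of the CD3 and proximal signalling list, 129 log2 fold changes under alternatives moved by less than the spread between mice, and the 6 that moved by more were all with the colon score as a covariate. The log2 fold change was then 0.04 for Cd3e, -0.04 for Cd3g, -0.08 for Fyn, 0.21 for Lat, -0.22 for Lcp2 and 1.36 for Trat1. Cd3d kept a log2 fold change between 0.75 and 1.00, Trat1 between 1.36 and 2.85 and Lcp2 between -0.58 and -0.22 under every alternative run. Without a filter on low values the log2 fold change of Cd247 was 0.07 (SE 0.13). For the 10 named pathway genes with groups apart, 126 values kept their direction and side of the unadjusted threshold, and 24, of Sla, Prkcq, Rasgrp1 and Dgka, kept their direction only. With groups apart, the direction could not change when a single library was left out.

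The count of genes with an adjusted p under 0.05 in limma was 0, became 1 with a pseudocount of 0.1 and 2 without the trend in eBayes, and ranged from 0 to 5 when 1 library at a time was left out. In those fits the 890 higher genes at an unadjusted p under 0.05 ranged from 594 to 2026, the 1148 lower genes from 585 to 2049, the 7 higher pathway genes from 6 to 8 and the 6 lower pathway genes from 0 to 9. The highest counts of all genes came without cytarabine 1. With the colon score as a covariate 13 pathway genes were higher and 0 lower, beside 960 and 834 of all genes tested. The cause was not tested. The count of neighbour pairs with an adjusted p under 0.05 in the exact permutation test was also 6 with a pseudocount of 0.1, and the test was not run without single libraries because 5 libraries cannot give an exact p under 0.05.

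Same-numbered libraries come from different mice, and their deviations from the group means correlated at -0.709, -0.247 and -0.594. In the fit with a replicate block, 479 genes were higher and 515 lower at an unadjusted p under 0.05, 0 had an adjusted p under 0.05, and 7 pathway genes were higher and 0 lower. With FPKM, 3 mice per group and inferred read totals, differences in genes below 1 FPKM, such as Cd247, were not resolved.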

Other observations

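Outside the T-cell receptor pathway, the adaptor gene Hcst was among the genes with groups well apart. It encodes DAP10, the signalling partner of the NK receptor NKG2D. Hcst was at 13.3, 15.1 and 11.8 FPKM in treated mice against 6.58, 6.19 and 6.28 FPKM in control mice (log2 fold change 0.96, standard error 0.10, adjusted p = 0.132 from limma). The difference was 0.99 within the libraries with the lower colon scores and 0.92 within the others. Klrk1, which encodes NKG2D itself, was at 60.8, 61.1 and 50.8 FPKM in treated mice against 43.2, 50.2 and 35.0 FPKM in control mice. Tyrobp, which encodes the related adaptor DAP12, overlapped between groups, at 25.4 to 32.5 FPKM and 23.6 to 69.4 FPKM. The upper value was that of control 2, which also had the highest level of the macrophage marker C1qa (47.6 FPKM, against 1.83 to 18.5 FPKM in the others). The part of macrophages in the values of Tyrobp was not tested. Fgr, a Src family kinase of myeloid cells, was lower in every cytarabine library, at 0.386 to 0.776 FPKM against 0.982 to 1.98 FPKM. It averaged 0.594 FPKM with cytarabine and 1.56 FPKM in controls, so it passed the filter on mean FPKM only through the control group. At such low values the difference was not resolved. The summed neutrophil markers were lower in cytarabine libraries too, but the groups were barely apart, at up to 1433 FPKM against 1438 FPKM or more in controls. The part of neutrophils in the values of Fgr was not tested.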
